A study of Mus musculus with 2 samples.

Results

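Plasma cells and plasmablasts were picked out of 2 single-cell RNA libraries of sorted mouse hindlimb muscle cells by raw transcript counts. A cell barcode was taken when it held at least 3 UMIs (unique molecular identifiers, each standing for 1 captured transcript) of Jchain, at least 2 of Mzb1 and at least 1 of Sdc1, none of Siglech, and at most 2 of Igll1, Vpreb1 and Dntt together. Barcodes first had to hold at least 500 genes and at most 10% mitochondrial UMIs. The rule found 104 cells among the 5302 barcodes kept, of 5321 in all. Of these, 81 of 2636 lay in the library taken 28 days after hindlimb ischemia surgery, and 23 of 2666 in the library of mice with no surgery (day 0).

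Both groups came from Fsp1-Cre:R26R-EYFP mice, in which the promoter of Fsp1 (S100a4) drives Cre, so that a cell which has used it stays YFP-positive, as do its progeny. Cells were sorted as YFP-positive and CD11b-negative and captured on the 10x Genomics droplet system, whose labels name 3' v1 chemistry. The label records past use of that promoter and marks no single cell type. The labels give neither the number, age or sex of the mice nor any pooling. Each group had 1 library, so no difference between day 28 and day 0 could be tested, and the 95% intervals below are exact and cover counting error only.

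Plasma cells are the end stage of B cell differentiation and secrete antibody, and plasmablasts are their dividing precursors. The transcription factors Prdm1, Irf4 and Xbp1 shut down B cell genes such as Pax5 and enlarge the endoplasmic reticulum (ER), where antibody chains are folded, glycosylated and checked. Jchain links antibody monomers into IgM pentamers and IgA dimers, Mzb1 is an ER co-chaperone of B lineage cells, and Sdc1 (CD138) is the surface proteoglycan by which plasma cells are usually sorted. Bone marrow is the best known home of long-lived plasma cells. Of 27998 gene rows in the deposited counts, 0 stood under the immunoglobulin constant region symbols searched, so isotypes are not described.

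Depth differed between the libraries, with 38785525 UMIs at day 28 and 19574562 at day 0. The plasma cells had a median of 7407 UMIs per cell at day 28 and 8000 at day 0, with upper quartiles of 14434 and 9275 and maxima of 60557 and 23204, while the other kept barcodes had medians of 12547 and 4831. The design text gives 5000 captured cells, without saying whether per library, beside 2653 barcodes at day 28 and 2668 at day 0. The libraries shared 13 barcode sequences. No plasma cell barcode was a plasma cell in both, and 1 day 28 plasma cell had a barcode that also occurred at day 0. Jchain in the other barcodes also differed: at least 1 Jchain UMI was found in 77.7% (76.1% to 79.3%) of the other kept barcodes at day 28 and in 14.4% (13.1% to 15.8%) at day 0. Erythroid cells with at least 100 Hbb-bs UMIs, which should lack Jchain, had it in 82.9% of 105 cells at day 28 (median depth 15966 UMIs) and in 17.3% of 104 at day 0 (median depth 9163.5 UMIs). In these erythroid cells Jchain stayed at 9 UMIs or fewer at day 28 and 2 or fewer at day 0. Free RNA itself was not measured, and depth differed as well.

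The Jchain minimum of 3 UMIs was thus below the highest count in erythroid cells at day 28 and above it at day 0. It was passed by 792 kept barcodes at day 28 and 93 at day 0, and the Sdc1 minimum by 187 and 116. Most members stood far above these limits: 72 of the 81 at day 28 and 21 of the 23 at day 0 held 100 or more Jchain UMIs. At the lower edge, 3 day 28 members and 1 day 0 member held under 10 Jchain UMIs, and 11 and 4 held exactly 1 Sdc1 UMI. The day 28 members with 3 and 6 Jchain UMIs held 0 UMIs of Xbp1, Tnfrsf17 and Derl3. They held 18 and 24 UMIs of the pre-B marker Vpreb3, and 193 and 390 UMIs of cell cycle genes. Their markers thus go against the name, but they stay among the 81 and in the sums over all members. Just outside, 27 barcodes at day 28 and 61 at day 0 failed Sdc1 alone. Failing the Siglech limit alone were 5 barcodes at day 28 and 0 at day 0, each with 100 or more Jchain UMIs.

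The cells without Sdc1 differed between the libraries. At day 0, 55 of the 61 held under 100 Jchain UMIs. In those 55 cells Ms4a1 (CD20, a B cell surface protein) was detected in 55, Rgs13 (a regulator of G protein signalling found in germinal centre B cells) in 24 and Mki67 (a marker of dividing cells) in 23. Prdm1 was detected in 0 of them and Tnfrsf17 in 1. At day 28 the 20 such cells had 0 with Rgs13 and 7 with Ms4a1, and 18 held the granulocyte precursor gene Elane. Without the Sdc1 limit the day 0 group would thus have gained mainly Ms4a1-positive cells with little Jchain. The 7 cells at day 28 and 6 at day 0 that lacked Sdc1 but held 100 or more Jchain UMIs had 59161 and 73296 CPM of Jchain (CPM being UMIs scaled to a total of 1000000) and Xbp1 in each cell. Elane was also found in 5 of those 7 cells and 1 of those 6, at 7863 and 25.1 CPM.

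Some members also carried many UMIs of another cell type's markers. In 14 of the 81 cells at day 28 and 2 of the 23 at day 0, at least 40 UMIs were present of 1 or more of 5 marker lists, those of granulocyte precursors, monocytes and macrophages, erythroid cells, T and NK cells, and pro-B and pre-B cells, in 13 and 2 cells from the granulocyte precursor list (Elane, Mpo, Prtn3, Camp and others). The limit of 40 UMIs takes no account of depth, so deep cells reach it more readily. In 1 such day 28 cell the granulocyte precursor list held 47 of 21526 UMIs. That is a smaller share than the 17 of 5083 UMIs in 1 day 28 cell under the limit. The 14 and 2 cells had a median of 30363 UMIs at day 28 and 22150 at day 0, and gave 43.5% and 20.1% of all plasma cell UMIs. Their Jchain still had a median of 1057.5 and 1196.5 UMIs. Whether they are doublets was not tested. Scrublet, a doublet caller, called 8 barcodes (0.303%) at day 28 and 4 (0.150%) at day 0, under the share at which it can be taken to have worked. A further 3 and 1 members held under 30 Jchain UMIs. The remaining 64 and 20 cells, called core plasma cells here and chosen after the values were seen, had medians of 6830.5 and 7862.5 UMIs. The dendritic and mature B cell lists had no part in this choice, and 4 day 28 core cells and 0 day 0 core cells held 40 or more UMIs of the conventional dendritic cell list (42 to 285 UMIs). Results are given for the core, where it matters for all 104 members, and without those 4 cells where that changed a call or moved a value by over 1.5 times.

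**Figure D1:**
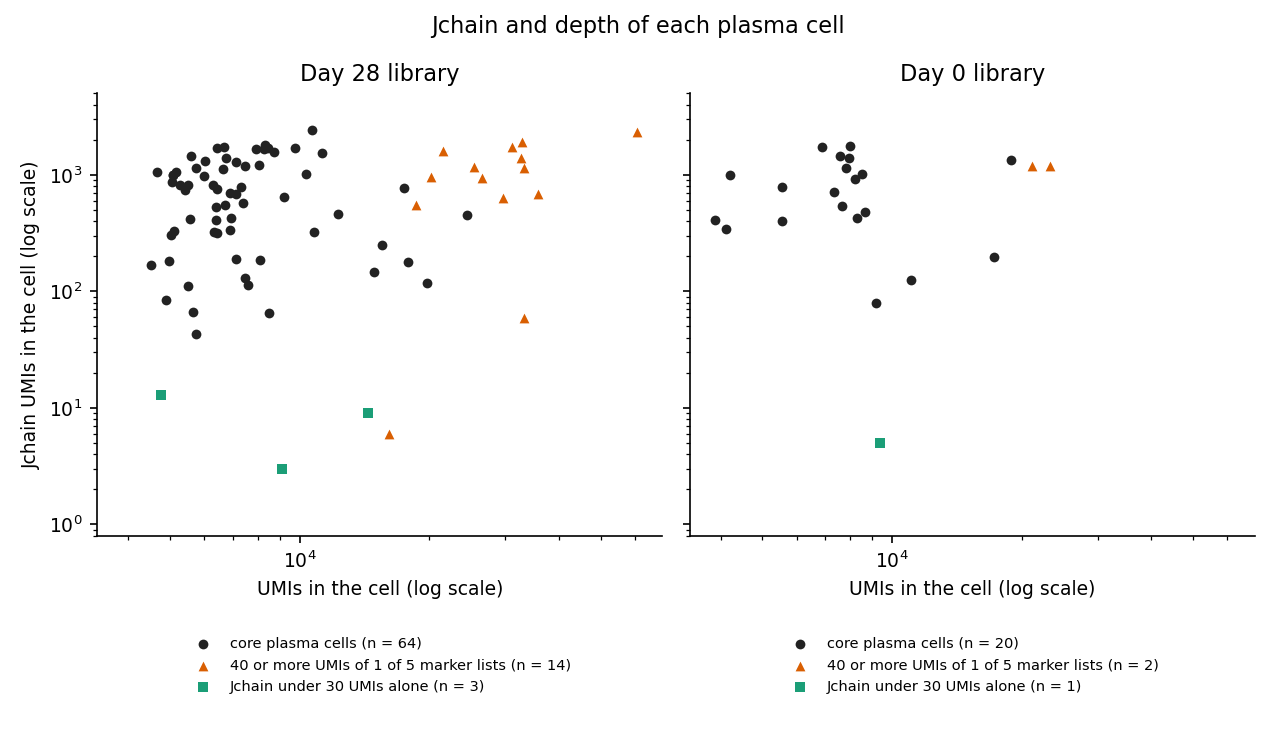
UMIs per cell against Jchain UMIs per cell for the 81 day 28 and 23 day 0 members, both axes on a log scale. Black circles are the 64 and 20 core plasma cells, orange triangles the 14 and 2 cells with 40 or more UMIs of 1 or more of the 5 marker lists, and green squares the 3 and 1 cells with under 30 Jchain UMIs alone. The triangles lie to the right, at higher depth, and most of them lie among the circles in Jchain.

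The label was checked against markers of plasma cells and of other cells. In core plasma cells Jchain, which the rule used, made up 97555 CPM (interval 96702 to 98413) of the day 28 UMIs and 97580 CPM (interval 96084 to 99092) of the day 0 UMIs. Xbp1, which it did not use, was detected in 64 of 64 and 20 of 20 cells, at 1928 CPM and 1839 CPM. Tnfrsf17 (BCMA, the receptor through which APRIL sustains plasma cells) was found in 44 and 10 cells, Pou2af1 (a B cell coactivator) in 54 and 13, Irf4 in 31 and 6, and Prdm1 in 14 and 4. Of B cell genes that plasma cells lose, Pax5 was found in 1 and 3 cells, while Ms4a1 was found in 20 and 10. The defining genes thus stood as the name says, with part of the cells holding Ms4a1.

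Markers of other cells differed in level between the lists. In core cells the monocyte and granulocyte precursor lists lay below the other barcodes in both libraries. Both lists had served to leave cells out of the core, so their levels there do not check the label. The fibroblast list summed to 19.5 CPM at day 28, against 18.0 CPM at day 0, with 7 and 9 of its 10 genes at 0, among them Col1a1, Col1a2 and Pdgfra. The muscle list summed to 31.2 and 18.0 CPM, which is 16 and 3 UMIs in all, against 27.3 and 67.4 CPM in the other barcodes, with Pax7, Myod1 and Acta1 at 0 in both. The monocyte and macrophage list summed to 308 CPM at day 28, against 216 CPM at day 0, against 2435 and 2653 CPM in the other barcodes, and Csf1r and Adgre1 were at 0 in both. The conventional dendritic cell list summed to 2612 and 1022 CPM, led by Cst3, above the 1153 and 994 CPM of the other barcodes. The 4 day 28 cells named above held 49.9% of its 1340 UMIs there, and without them it summed to 1458 CPM. The mature B cell list, which shares Cd74, H2-Aa and Cd79a with the lists below, summed to 10631 and 15816 CPM, against 834 and 6084 CPM in the other barcodes, and the plasmacytoid dendritic list, led by Ly6d and with Siglech at 0 by the rule, to 2103 and 2794 CPM, against 1098 and 1851 CPM. The granulocyte precursor list summed to 1261 and 270.4 CPM in core cells, against 10113 and 7295 CPM in the other barcodes. It held 0 to 26 UMIs per core cell at day 28 and 0 to 6 at day 0, with 12 and 8 of its 12 genes detected. In all members it summed to 13781 CPM at day 28 and 12781 CPM at day 0, above the other barcodes in both libraries. The monocyte and macrophage list summed to 508 and 295 CPM in all members, still below the other barcodes. The part of these lists in the results below was not tested. S100a4, whose promoter drove the label, was found in 17 of 64 core cells at day 28 (26.6%) and 2 of 20 at day 0 (10.0%), at 44.8 and 30.05 CPM and the median depths given above. Vpreb3 cells, a B precursor group from the same sorts with at least 2 Vpreb3 UMIs, no Sdc1 or Siglech and at most 2 Jchain UMIs, had it in 13.1% and 11.3%, at 44.9 and 67.1 CPM and median depths of 8197.5 and 4603.5 UMIs.

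The genes that stood out most in plasma cells over the other kept barcodes were ranked by the smaller of the 2 libraries' ratios. Since the cells were selected by several of these genes, the ranking describes them and tests nothing. The rule fixed Jchain, Sdc1 and Mzb1, but the ranking of the core cells also held Chst1 (a sulfotransferase), Tnfrsf17, Derl3 (an ER degradation factor induced by Xbp1), Cacna1s (a calcium channel subunit known from skeletal muscle), Oosp1 (known from mouse oocytes), Slpi (a secreted inhibitor of neutrophil elastase), Epcam (an adhesion protein of epithelia), Wnt10a (a Wnt ligand) and Bhlhe41 (a transcriptional repressor) among the first 12. Genes after these included Txndc5 (a disulfide isomerase), Pon3, Fam46c, Eaf2, Ly6a (Sca-1) and Tram2.

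Tnfrsf17 was at 259 CPM in core plasma cells and 1.40 CPM in the other barcodes at day 28, and at 162 and 0.362 CPM at day 0. Derl3 was at 745 and 2.995 CPM at day 28, and at 595 and 3.36 CPM at day 0. Cacna1s was at 203 and 1.86 CPM at day 28 and at 180 and 2.43 CPM at day 0, and its UMIs were spread over 45 of 64 and 14 of 20 cells. The 12 muscle genes above, by comparison, held 16 and 3 UMIs in all. Epcam reached 136 and 0.928 CPM at day 28 and 96.1 and 1.81 CPM at day 0, in 30 and 8 cells, and Wnt10a 99.4 and 0.742 CPM at day 28 and 138 and 3.31 CPM at day 0. Ly6a was at 1659 and 22.3 CPM at day 28 and at 1664 and 74.3 CPM at day 0.

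Slpi was uneven. It summed to 15110 CPM in core plasma cells and 250.3 CPM in the other barcodes at day 28, and to 21921 and 230 CPM at day 0, but 1 cell held 40.9% of its UMIs at day 28 and 1 cell 33.5% at day 0. It was still detected in 62 of 64 and 17 of 20 cells. Il10, an anti-inflammatory cytokine, was found in 18 of 64 and 4 of 20 core cells, at 78.0 and 48.1 CPM, against 0.954 and 1.08 CPM in the other barcodes. A single cell held 42.5% of the Il10 UMIs at day 28 and a single cell 37.5% at day 0. Chac1, a glutathione-degrading enzyme of the ATF4 stress response, was at 107 and 30.05 CPM in 10 and 3 cells, against 0.345 and 0.103 CPM.

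**Figure D2:**
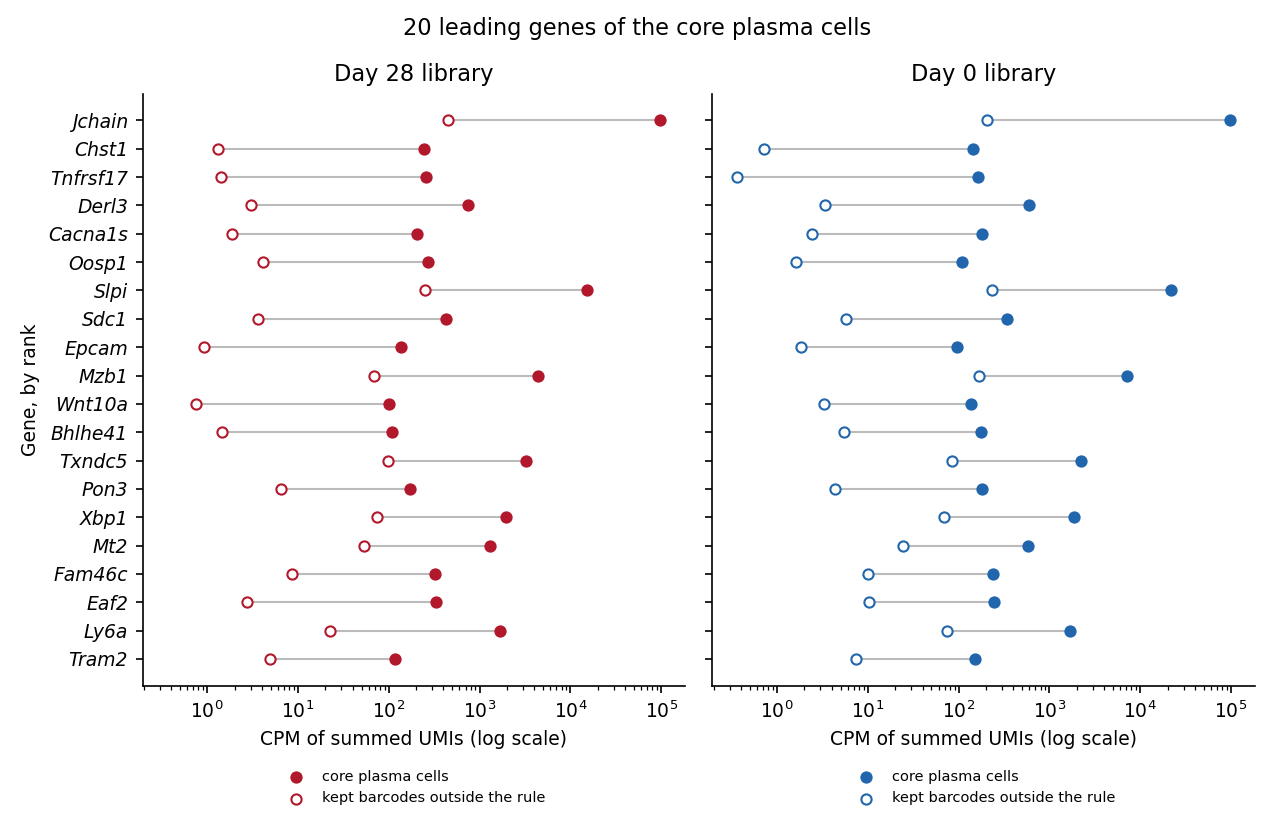
CPM of summed UMIs (log scale) of the 20 leading genes of core plasma cells (filled circles) and of the kept barcodes outside the rule (open circles), day 28 on the left and day 0 on the right, genes in order of rank. Jchain lies at 97555 CPM at day 28, against 97580 CPM at day 0, and each of the 20 genes is at least 20.3 times higher in the plasma cells at day 0 and at least 23.6 times higher at day 28.

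Genes of the secretory apparatus stood above the other cells in list after list. Over all 2003 genes measured (a mean of at least 50 CPM), 11.5% were at least 2-fold higher in core plasma cells than in the other barcodes in both libraries, and 13.2% at least 2-fold lower. Of the ER chaperones and folding enzymes 22 of 26 measured were at least 2-fold higher and 0 lower, with median log2 ratios of 2.77 at day 28 and 2.62 at day 0 against -0.28 and -0.26 over all measured genes. Mzb1, which the rule used, is 1 of them; without it 21 of 25 were higher, with medians of 2.61 and 2.61. Of the genes of ER-associated degradation and the unfolded protein response 16 of 19 were higher, of ER translocation and the signal peptidase 15 of 22, of vesicle transport 13 of 22 and of N-glycosylation 7 of 15, with 0 lower in each. For all 104 members the counts were 18 of 23, 14 of 17, 10 of 22, 7 of 22 and 3 of 15, beside 7.82% of 2045 genes higher and 4.35% lower.

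Other lists stood lower in core plasma cells. Of the cell cycle genes 14 of 17 were at least 2-fold lower in core plasma cells in both libraries and 0 higher, of the S100 and galectin genes 11 of 15, of the glycolysis and hypoxia genes 6 of 9 and of the secreted factors 5 of 9, with 0 higher. S100a8 and S100a9 are also on the granulocyte precursor list by which the core was cut. For all 104 members the lower counts were 8 of 19, 8 of 15, 0 of 9 and 3 of 9, beside 4.35% of 2045 genes. Of the S100 and galectin genes 2 of 15 were higher there, beside 7.82% of all genes, and 0 in the other lists just named. Of the 32 nuclear genes of oxidative phosphorylation 1 was higher and 1 lower, with medians of -0.15 and -0.30. The other barcodes are a mixture that includes dividing precursors, so these ratios depend on its makeup.

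The ER chaperones were examined further because their promoters are known targets of Xbp1 and Atf6. The ER stress response element, at which these factors bind beside NF-Y, consists of CCAAT and CCACG with 9 bases of any kind between them. It was searched on both strands of RefSeq promoter windows (GRCm38.p6, 250 bases before to 50 after the start). Of 27025 genes 37 (0.137%) held it in any window. Of the 25 chaperone genes with a window, 8 (32.0%) held it: Hspa5, Hsp90b1, Calr, Canx, Pdia6, Dnajc3, Creld2 and Ero1b (Ero1lb in the count tables). Of 25 degradation and unfolded protein response genes 2 did (8%), Derl3 and Syvn1, and 0 of the genes of translocation, glycosylation and vesicle transport. The other element searched, the unfolded protein response element to which Xbp1 binds, reads TGACG directly followed by TGG, and its opposite strand begins with CCACG, which it shares with the first element. It was in 193 genes (0.714%), among them 6 of 30 vesicle transport genes (20%: Sec16b, Sec24d, Kdelr3, Copb1, Copb2 and Arf1), 2 chaperones (8%: Txndc5 and Txndc11), 1 degradation gene (4%: Ube2j1) and 0 of translocation and glycosylation. The octamer of B cell promoters, ATTTG directly followed by CAT, was in 532 genes (1.97%) and in 0 of the 11 defining plasma cell genes with a window. The 250 bases before the start are shown for 5 of these genes, read in the direction of the gene with the element in capitals, because they are well expressed folding genes and Derl3, one of the leading genes above. In Calr, Creld2 and Derl3 it lies on the opposite strand and so reads CGTGG first, and in Hsp90b1 it occurs on each strand.
Hspa5, chr2:34771840-34772089 (+ strand): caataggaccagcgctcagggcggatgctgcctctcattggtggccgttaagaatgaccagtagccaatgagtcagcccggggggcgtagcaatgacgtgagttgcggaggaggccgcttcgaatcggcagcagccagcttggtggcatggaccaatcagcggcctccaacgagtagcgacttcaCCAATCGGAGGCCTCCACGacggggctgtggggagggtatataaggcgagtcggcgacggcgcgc
Hsp90b1, chr10:86705445-86705694 (- strand): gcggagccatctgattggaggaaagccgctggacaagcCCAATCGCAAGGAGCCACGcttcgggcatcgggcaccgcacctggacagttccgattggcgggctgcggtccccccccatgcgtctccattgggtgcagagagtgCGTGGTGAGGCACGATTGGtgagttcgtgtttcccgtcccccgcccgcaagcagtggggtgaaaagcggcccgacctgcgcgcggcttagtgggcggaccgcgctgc
Calr, chr8:84846932-84847181 (- strand): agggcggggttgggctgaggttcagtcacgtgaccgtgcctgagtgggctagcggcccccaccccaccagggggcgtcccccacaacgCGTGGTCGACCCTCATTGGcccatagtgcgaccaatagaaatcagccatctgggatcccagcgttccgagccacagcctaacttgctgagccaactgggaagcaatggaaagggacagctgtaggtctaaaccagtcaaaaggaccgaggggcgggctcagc
Creld2, chr15:88819396-88819645 (+ strand): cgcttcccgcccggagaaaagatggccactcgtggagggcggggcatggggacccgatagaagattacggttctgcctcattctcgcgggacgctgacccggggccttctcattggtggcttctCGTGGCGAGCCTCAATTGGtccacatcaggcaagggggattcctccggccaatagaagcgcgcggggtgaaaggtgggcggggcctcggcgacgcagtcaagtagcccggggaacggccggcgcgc
Derl3, chr10:75893148-75893397 (+ strand): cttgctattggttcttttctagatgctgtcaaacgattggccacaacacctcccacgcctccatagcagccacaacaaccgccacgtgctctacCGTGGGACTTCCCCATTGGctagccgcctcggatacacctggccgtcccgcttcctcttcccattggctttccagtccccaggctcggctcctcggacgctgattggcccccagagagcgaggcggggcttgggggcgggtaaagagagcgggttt

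A match of letters describes these windows and shows no binding. Hspa5 (BiP, the main ER chaperone), with the element 47 to 65 bases before the start, was at 844 CPM in core plasma cells and 202 CPM in the other barcodes at day 28, and at 1196 and 225 CPM at day 0. Hsp90b1 (GRP94), with elements 194 to 212 and 89 to 107 bases before the start, stood 8.33 times higher in the plasma cells at day 28 and 11.1 times at day 0. Creld2, an ER stress-induced disulfide isomerase, stood 17.3 and 21.3 times higher, and Calr, a lectin chaperone, 1.30 and 2.75 times. Canx, the membrane-bound partner of Calr, also holds the element but was 0.770 and 1.16 times its level elsewhere. The degree of plasma cell enrichment thus differed widely among genes with the same element. The genes Herpud1 (24.1 and 8.95 times), Edem1 (16.2 and 17.7 times) and Txndc5 (33.4 and 26.8 times) held no full match of the ER stress response element, while Txndc5 held the unfolded protein response element. Derl3, with the first element 138 to 156 bases before the start, stood 248.6 and 177 times higher.

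Among the core plasma cells, the ER genes followed Mzb1 more closely than Jchain. Across the 64 day 28 cells the summed CPM of the other chaperones had a Spearman's rho of 0.63 with Mzb1 and of -0.22 with Jchain, and across the 20 day 0 cells 0.62 and -0.17. These are descriptions across cells of 1 library each, which share depth and free RNA, and the CPM of all genes share a total in which Jchain is large. Among 1009 genes detected in at least 50% of the core cells of both libraries, the 15 with the highest rho with Mzb1 at day 28 were Sdf2l1, Calr, Sec61b, Psma2, Fkbp11, Hsp90b1, H13, Erp44, Creld2, Pdia6, Atp5g1, Ddost, Manf, Vimp and Pdia3. Of these, 12 (80.0%) belong to the 5 secretory lists, beside 81 of the other 993 genes compared (8.16%), and H13 (signal peptide peptidase) is an ER protease too. Their rho ranged between 0.45 and 0.57 at day 28, against a median of 0.06 over all genes. In the day 0 cells, which had no part in the ranking, 14 of the 15 were positive, beside 59.2% of the other 993 genes and a median of 0.06 over all, and they reached up to 0.69 for H13, and Atp5g1 was at -0.29.

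**Figure D3:**
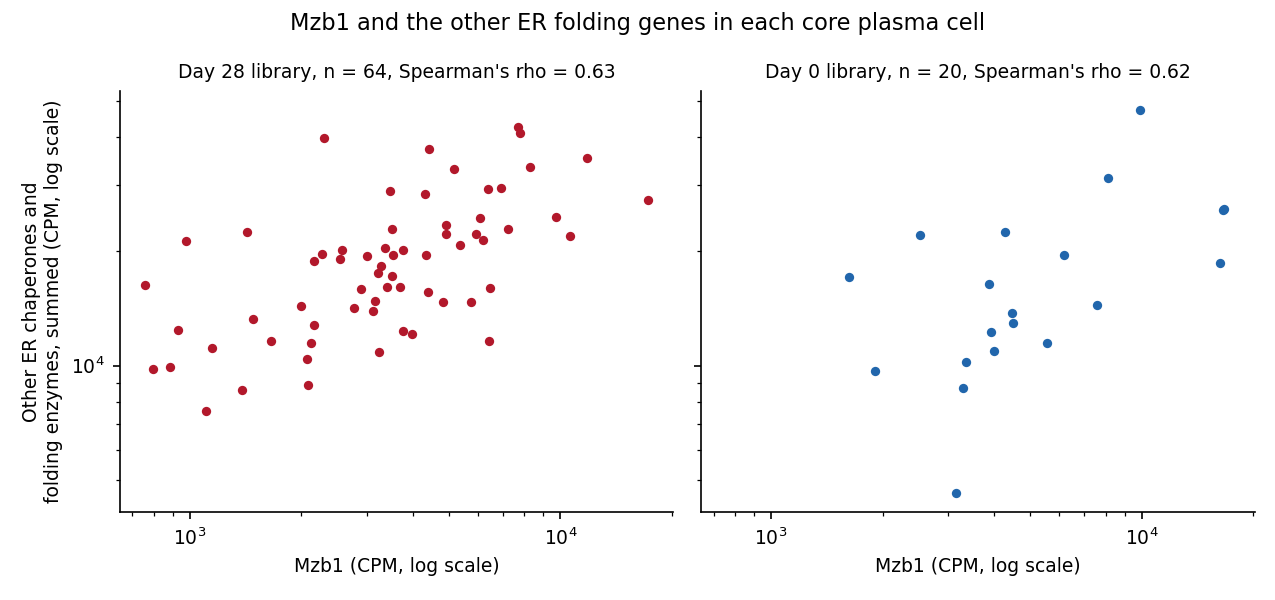
Mzb1 CPM against the summed CPM of the other ER chaperones and folding enzymes in each core plasma cell, log scales, 64 day 28 cells on the left and 20 day 0 cells on the right. In both libraries cells with more Mzb1 lie higher, with a Spearman's rho of 0.63 and 0.62.

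Jchain itself spanned a wide range. Among day 28 core cells it ran between 5932 and 264057.2 CPM with a median of 96840, and among day 0 core cells between 8716 and 252732.8 CPM with a median of 101080. The middle 50% of cells lay between 36843 and 182378.3 CPM at day 28 and between 66809 and 153697.4 CPM at day 0, so the libraries overlapped throughout. MHC class II genes, which present antigen and decline as plasma cells mature, were lower where Jchain was higher, with a rho of -0.33 at day 28 and -0.58 at day 0. Xbp1 had a rho of 0.10 and 0.41 with Jchain and of 0.02 and 0.30 with the chaperones.

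Few core cells carried a division signature. Cell cycle genes made up at least 0.5% of the UMIs in 4 of 64 core cells at day 28 (6.25%, 1.73% to 15.2%) and in 1 of 20 at day 0 (5%, 0.127% to 24.9%). The median share was 0.171% and 0.104%. The 4 and 1 cells were deeper, with medians of 18580 and 17216 UMIs against 6681 and 7795 in the rest of the core, and held less Jchain, with medians of 17255 and 11501 CPM against 104838.6 and 105425.6 CPM. At day 0 these values are those of 1 cell. Of the 4 day 28 cells 1 also held 285 UMIs of the conventional dendritic cell list. Mki67 was found in 8 of 64 and 4 of 20 core cells. Over all members, 16 of 81 day 28 cells and 2 of 23 day 0 cells passed the same 0.5%, but these include the cells with other types' markers. The limit lies within a continuous range, with 1 core cell at day 28 between 0.4% and 0.6%, and plasmablasts are not separated from plasma cells on this basis.

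The share of plasma cells was higher at day 28. It was 3.07% of kept barcodes (2.45% to 3.80%) at day 28 and 0.863% (0.548% to 1.29%) at day 0, a ratio of 3.56 (2.22 to 5.93). Core cells made 2.43% and 0.750%, a ratio of 3.24 (1.93 to 5.65). Counting every barcode with 100 or more Jchain UMIs, with no other criterion, gave 86 and 27 barcodes and a ratio of 3.22 (2.07 to 5.17). When every cell was thinned to 3200 UMIs before the rule was applied, 55 of 2636 and 12 of 2441 barcodes passed, a ratio of 4.24 (2.25 to 8.71), with 225 day 0 barcodes left out as too shallow. The ratio was lower when only barcodes with at least 4175 UMIs, the lowest total at day 28, were counted. Members were then 81 of 2636 and 21 of 1640 barcodes, a ratio of 2.40 (1.47 to 4.08). Without the Sdc1 limit the ratio was 1.30 (0.969 to 1.75), from 108 and 84 cells, the added cells being those described above. The sort, the number of mice and the recovery of cells are confounded with the day, and the share counts sorted barcodes, not cells of the muscle.

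Within plasma cells, few genes differed much between the libraries. Of 2067 genes measured in core plasma cells 99 (4.79%) were at least 2-fold higher at day 28 and 92 (4.45%) at least 2-fold lower, with a median log2 ratio over all of 0.03. In all 104 members 77 (3.56%) of 2165 were higher and 75 (3.46%) lower. Only part of these were the same genes: 32 of the higher ones, 41.6% of those in all members and 32.3% of those in the core, and 38 of the lower ones, 50.7% and 41.3%. The sums rest on 513025 UMIs at day 28 and 166418 at day 0, so a gene at 50 CPM is worth few UMIs and single cells weigh heavily.

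The secretory genes lay near a ratio of 1. In core cells the median log2 ratio was 0.00 for the 27 measured chaperones, -0.01 for 23 translocation genes, 0.01 for 17 glycosylation genes, 0.08 for 23 degradation and unfolded protein response genes and 0.03 for 28 vesicle transport genes. Only 1 glycosylation gene and 1 vesicle transport gene of all these lay past 2-fold, Prkcsh (44.8 and 96.1 CPM, ratio 0.466, 0.236 to 0.944) and Sec31a (37.0 and 90.1 CPM, ratio 0.411, 0.198 to 0.869), both lower at day 28. Within the lists the spread was wider than the medians: Prdx4, an ER peroxidase, had 854 CPM at day 28 against 511 CPM at day 0 (ratio 1.67, 1.32 to 2.13) and Txndc5 at 3242 and 2241 CPM (1.45, 1.29 to 1.62). Fkbp11, an ER prolyl isomerase, was at 228 and 427 CPM (0.535, 0.395 to 0.728), Pdia3 at 322 and 589 CPM (0.546, 0.423 to 0.709) and Pdia4 at 871 and 1286 CPM (0.678, 0.574 to 0.801). For these 3 genes 1 day 0 cell held 33.8%, 40.8% and 21.0% of the day 0 UMIs.

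Of the defining genes, Jchain, Xbp1 and Sdc1 lay near a ratio of 1 in core cells and Mzb1 lay lower. The rule chose the cells by Jchain, Mzb1 and Sdc1, and the core by a further Jchain minimum. The ratios of these genes therefore describe the chosen cells and test nothing. In core cells Jchain had a ratio of 0.9997 (0.982 to 1.02), Xbp1 of 1.05 (0.921 to 1.196) and Sdc1, at 423 and 343 CPM, of 1.23 (0.919 to 1.68). Mzb1 was lower at day 28, at 4407 CPM against 7157 CPM at day 0 (ratio 0.616, 0.574 to 0.661), with 26.4% of the day 0 UMIs in 1 cell. Its median over cells was 3491 CPM at day 28, against 4366 CPM at day 0. In all 104 members Mzb1 was past 2-fold lower at day 28, at 2863 and 6007 CPM, and Jchain was lower too, at 68056 and 84679 CPM. Xbp1 was at 1420 and 1540 CPM there and Sdc1 at 289 and 300 CPM. Of 21 regulators measured, 2 were at least 2-fold higher and 1 lower, 3 in all, beside the 4.79% and 4.45% of all genes. Irf4 was at 111 and 54.1 CPM (ratio 2.05, 1.01 to 4.72), and Trp53inp1, a p53-induced stress and autophagy protein, at 396 and 132 CPM (2.99, 1.92 to 4.88), in 55 of 64 and 11 of 20 cells. Trp53inp1 was at ratios of 0.983 in Vpreb3 cells and 0.988 in Siglech cells, the plasmacytoid dendritic group with at least 2 Siglech UMIs and no Sdc1. Pou2f2 (Oct-2) was at 78.0 and 168 CPM (0.463, 0.279 to 0.780).

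Receptors that keep plasma cells alive gave wide intervals. Tnfrsf17 was at 259 and 162 CPM (ratio 1.60, 1.05 to 2.51), Tnfrsf13b (TACI) at 251 and 276 CPM (0.910, 0.645 to 1.30) and Tnfrsf13c (the BAFF receptor, typical of B cells) at 119 and 198 CPM (0.5996, 0.386 to 0.946). Of 9 survival genes measured, only Bcl2 and Cd28 lay past 2-fold. Bcl2 was at 83.8 and 36.1 CPM (2.32, 0.985 to 6.68). Cd28 was at 35.1 and 78.1 CPM (0.449, 0.208 to 0.997, and 0.501 without the 4 cells with dendritic UMIs). Of 15 homing and adhesion genes 1 was at least 2-fold lower and 1 higher, the hyaluronan receptor gene Cd44 at 201 and 90.1 CPM (2.23, 1.29 to 4.12). Beside both lists, 4.79% of all 2067 genes were higher and 4.45% lower. Cxcr4, which holds plasma cells in bone marrow, was found in 13 of 64 and 2 of 20 cells.

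The lists of B cell identity and of antigen presentation had medians below that of all genes at day 28, with part of their genes past 2-fold. Of 15 B cell identity genes 3 were at least 2-fold lower and 1 higher, with a median log2 ratio of -0.71, against -0.78 in Vpreb3 cells (10 of 25 lower), -0.54 in Siglech cells (3 of 17 lower) and -1.36 in the other barcodes (9 of 14 lower). In those comparisons 5.67%, 2.05% and 4.64% of all measured genes were at least 2-fold lower. In core plasma cells 4.45% were lower and 4.79% higher. Ebf1, a B cell transcription factor, was at 44.8 and 228 CPM (ratio 0.196, 0.112 to 0.338), in 15 of 64 and 10 of 20 cells. Fcmr (the IgM Fc receptor) was at 23.4 and 162 CPM (0.144, 0.0665 to 0.294) and Ltb (lymphotoxin beta) at 27.3 and 132 CPM (0.206, 0.0977 to 0.422). Irf8 was the higher one, at 156 and 60.1 CPM (2.59, 1.34 to 5.62), and at a ratio of 1.59 (0.789 to 3.55) without the 4 cells with dendritic UMIs. Cd79a, the antigen receptor's signalling chain, was at 791 and 1508 CPM (0.525, 0.447 to 0.617), while its partner Cd79b was at 489 and 439 CPM (1.11, 0.856 to 1.47).

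Of 8 MHC class II genes measured in the core 2 were at least 2-fold lower and 1 higher, beside 4.45% and 4.79% of all 2067 genes. The list's median there was -0.66. In all members 4 of 6 were at least 2-fold lower and 0 higher, with a median of -1.195, beside 3.46% of all 2165 genes lower and 3.56% higher. Cd74, the invariant chain, was at 8352 and 12421 CPM (ratio 0.672, 0.638 to 0.709), H2-Ab1 at 963 and 1616 CPM (0.596, 0.512 to 0.694) and H2-Aa at 723 and 925 CPM (0.782, 0.646 to 0.949). The 4 day 28 cells with dendritic UMIs held 26.2% of the list's core UMIs at day 28. Without them 6 of 7 genes were at least 2-fold lower and 0 higher, beside 4.44% and 4.25% of all 2072 genes then measured, the median was -1.61, and H2-Ab1 had a ratio of 0.403 (0.341 to 0.477), H2-Aa of 0.284 (0.222 to 0.363) and Cd74 of 0.613 (0.580 to 0.648). Per cell, with all core cells, the summed class II genes had a median of 8299 CPM at day 28, against 15236 CPM at day 0, but the cells overlapped, ranging between 158 and 35822 CPM at day 28 and between 3689 and 28520 CPM at day 0. Lower class II levels were also found in other cells: the list's median was -3.55 in Vpreb3 cells (8 of 8 at least 2-fold lower), -0.49 in Siglech cells and -2.35 in all other kept barcodes. The Vpreb3 cells also differed in other markers between the libraries. Mki67 was found in 69.7% of them at day 28 and 31.0% at day 0, at 177 and 110 CPM, and Cd79a was at 908 and 1837 CPM. The part of their makeup in the Vpreb3 ratios given here was not tested. In core cells H2-DMb1 was the higher gene, at 74.1 and 36.1 CPM (2.05, 0.862 to 5.95), and had a ratio of 0.964 without the 4 cells.

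**Figure D4:**
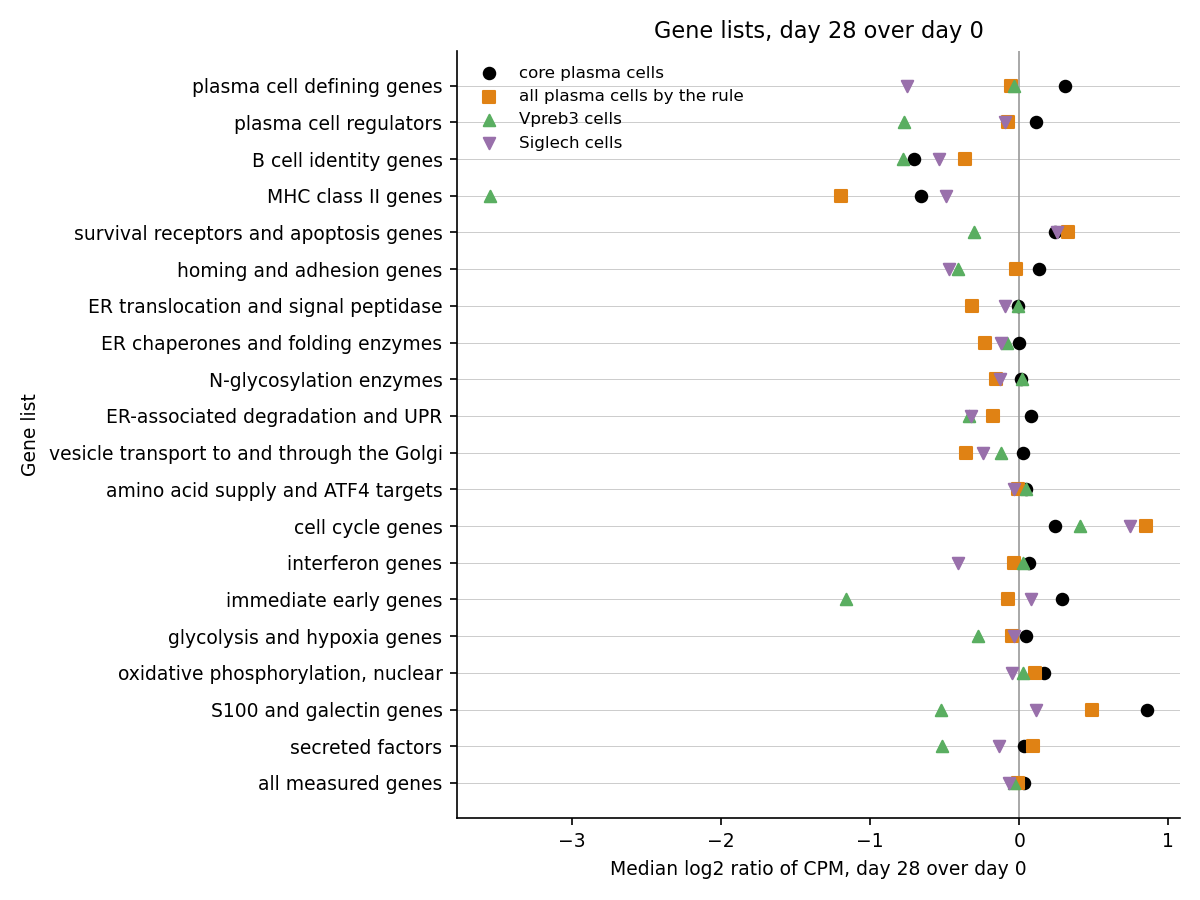
Median log2 ratio of CPM, day 28 over day 0, of each gene list and of all measured genes in core plasma cells (black circles), all members (orange squares), Vpreb3 cells (green triangles) and Siglech cells (purple triangles). The secretory lists lie near 0 in core plasma cells, MHC class II genes lie at -0.66 there and at -3.55 in Vpreb3 cells, and S100 and galectin genes lie at 0.86 in core plasma cells alone of the 4 groups above 0.5.

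The S100 and galectin genes stood highest, with 6 of 12 at least 2-fold higher in core cells and 0 lower. Of all 2067 genes 4.79% were higher and 4.45% lower. The list's median was 0.86 (0.40 after thinning each cell to 3200 UMIs), against 0.49 in all members, -0.53 in Vpreb3 cells and 0.11 in Siglech cells. Lgals3 (galectin-3) was at 158 and 36.1 CPM (ratio 4.38, 1.93 to 12.3) and Vim (vimentin) at 290.4 and 108 CPM (2.69, 1.64 to 4.65), with 34.6% and 30.2% of their day 28 UMIs in 1 cell each. S100a8, a neutrophil protein, was among the granulocyte precursor genes by which cells were left out of the core. It was at 173 and 54.1 CPM (3.21, 1.62 to 7.24), in 50 of 64 and 7 of 20 cells and never above 5.62% of the day 28 UMIs in 1 cell. The 4 day 28 cells with 40 or more dendritic UMIs held 452 of the list's 1491 core UMIs at day 28 (30.3%), and the dendritic list itself stood at 2612 and 1022 CPM. Without these cells 3 of 12 genes were at least 2-fold higher, beside 4.25% of all 2072 genes then measured. The median was then 0.48, with ratios of 2.05 (0.850 to 5.97) for Lgals3, 1.33 (0.778 to 2.37) for Vim and 3.29 (1.65 to 7.46) for S100a8. All 16 genes of the list summed to 2906 CPM at day 28, against 1658 CPM at day 0 in core plasma cells, and to 8155 and 8535 CPM in the other barcodes.

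The genes farthest from a ratio of 1 in core cells were led by granulocyte precursor genes. Prtn3 was at 267 and 24.04 CPM (ratio 11.1, 4.24 to 41.4), Elane at 261 and 54.1 CPM (4.83, 2.47 to 10.8) and Mpo at 214 and 54.1 CPM (3.97, 2.01 to 8.90), all proteins of neutrophil granules. Elane was found in 56 of 64 and 7 of 20 core cells, at a median of 2 and 0 UMIs and a highest of 8 and 2. Elane was also found in cells of other kinds: 61.1% of Vpreb3 cells at day 28 and 20.8% at day 0 held Elane, at 197 and 479 CPM and median depths of 8197.5 and 4603.5 UMIs, and a highest of 90 and 391 UMIs. In all 104 members Elane was at 2037 and 3953 CPM, a ratio of 0.515, and the cells outside the core carried most of its UMIs. Erythroid cells, which should lack Elane, held it in 77.1% and 26.9% (median depths 15966 and 9163.5 UMIs, a highest of 389 and 391 UMIs), and core plasma cells in 87.5% and 35% (median depths 6830.5 and 7862.5 UMIs). The part of free RNA in these ratios was not tested. Plac8 (501 and 150.2 CPM) and Fcer1g (166 and 42.1 CPM), which were far higher in the other barcodes at 3117 and 1805 CPM and at 526 and 513 CPM, are given in the same way.

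Other genes of this group were Nfkbia, Odc1, Cst3, Mt2, Tmsb4x and Ccl5. Nfkbia, the inhibitor of NF-kappaB and itself one of its targets, was at 1497 and 565 CPM (ratio 2.65, 2.14 to 3.32), in 62 of 64 and 20 of 20 cells, with at most 7.42% of the day 28 UMIs in 1 cell, and at 362 and 359 CPM in the other barcodes. Its ratio in all members was 2.03 (1.68 to 2.47), in Vpreb3 cells 0.684 and in Siglech cells 1.55. Odc1, which makes polyamines, was at 519 and 204 CPM (2.54, 1.77 to 3.74), with 2.19 in Siglech cells. Cst3 (cystatin C) was at 2520 and 979 CPM (2.57, 2.18 to 3.05), 21.2% of it in 1 day 28 cell, and it leads the dendritic cell list given above. Its ratio without the 4 cells with dendritic UMIs was 1.44 (1.21 to 1.72). Mt2, a metallothionein, was at 1314 and 583 CPM (2.25, 1.82 to 2.82), but 67.0% of the day 0 UMIs lay in 1 cell and it was found in 45 of 64 and 9 of 20 cells. Tmsb4x was at 5236 and 2614 CPM (2.003, 1.81 to 2.22, and 1.196 without the 4 cells), and Ccl5 at 181 and 54.1 CPM (3.35, 1.69 to 7.56), 52.7% of it in 1 day 28 cell.

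On the lower side, besides Ebf1, Mzb1 and Cd79a, stood Shisa5 (427 and 805 CPM, ratio 0.530, 0.426 to 0.662), a p53-induced ER protein, and Serinc3 (480 and 889 CPM, 0.539, 0.438 to 0.666). Both were also lower in Vpreb3 cells, at 0.0913 and 0.512, and in Siglech cells, at 0.379 and 0.493. Pdcd4, an inhibitor of translation, was at 70.2 and 186 CPM (0.377, 0.227 to 0.630), against 0.550 and 0.771 in those cells. The MHC class I gene H2-Q6 was at 48.7 and 180 CPM (0.270, 0.152 to 0.476) and stood at 0.271 and 0.348 in those cells, and Ewsr1 was at 48.7 and 156 CPM (0.312, 0.173 to 0.562) and Cdk2ap2 at 199 and 409 CPM (0.487, 0.354 to 0.671, and 0.521 without the 4 cells with dendritic UMIs). Ifi27l2a, an interferon-induced gene, was at 214 and 577 CPM (0.372, 0.280 to 0.494). Cd52 (2411 and 4867 CPM) had 64.7% and Ube2c (85.8 and 294 CPM) 98.0% of its day 0 UMIs in 1 cell.

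**Figure D5:**
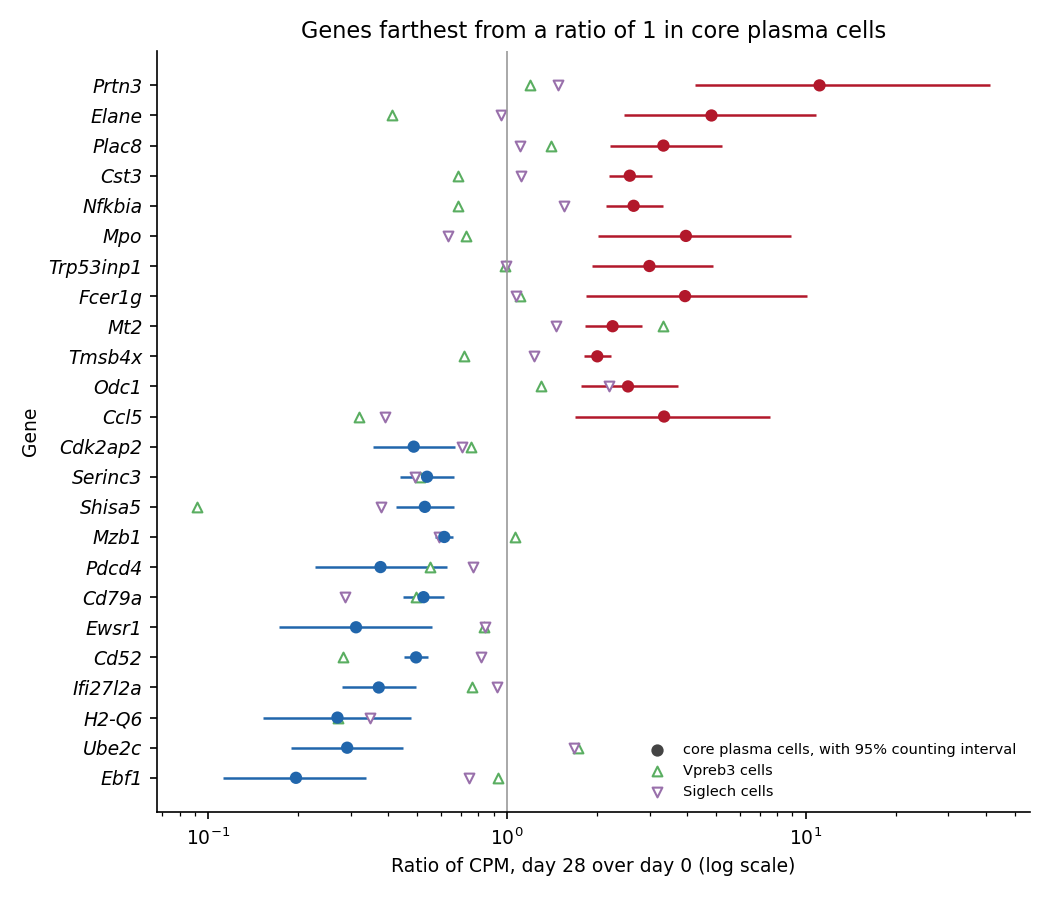
Ratio of CPM, day 28 over day 0 (log scale), of the 12 genes per side farthest from 1 in core plasma cells, with 95% counting intervals (red higher, blue lower at day 28), and of the same genes in Vpreb3 cells (open upward triangles) and Siglech cells (open downward triangles). Prtn3 lies at 11.1 and Ebf1 at 0.196 in core plasma cells, and Serinc3, Cd79a and H2-Q6 lie below 1 in the 3 groups.

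The remaining lists gave small medians in core cells, where 4.79% of all 2067 genes were at least 2-fold higher and 4.45% lower. Immediate early genes had 0.28 with 1 of 16 at least 2-fold higher, which is Nfkbia, against -1.16 in Vpreb3 cells and 0.08 in Siglech cells. Interferon genes had 0.06 with 1 of 6 lower, nuclear oxidative phosphorylation genes 0.16 with 0 of 31 past 2-fold, and glycolysis and hypoxia genes 0.05 with 0 of 8 past 2-fold. Amino acid supply and ATF4 target genes had 0.04 with 2 of 14 higher, Chac1 (ratio 3.57, 1.44 to 11.4, 32.7% of its day 28 UMIs in 1 cell) and Shmt2 (89.7 and 36.1 CPM, 2.49, 1.06 to 7.13). Cell cycle genes had 0.24 in core cells, with 1 of 9 higher and 2 lower, and 0.85 in all members, with 5 of 15 higher and 1 lower. Of all 2165 genes measured in all members 3.56% were higher and 3.46% lower. In all members 67.0% to 98.5% of the day 28 UMIs of Camp, Ngp, Lcn2 and Car2, which were named for their ratios there, lay in 1 cell each.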

How the data were processed

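The 2 deposited count matrices of sorted mouse muscle cells were used, 1 library per day. The values are UMI counts per gene and barcode as the authors deposited them, whole numbers with no normalisation, per the file headers. Cell Ranger 2.1.1 and STAR (version not stated) with build mm10 are named, per the submitters' processing notes. The lowest totals per deposited barcode were 4175 UMIs at day 28 and 3001 at day 0.

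The counting rule was applied to barcodes of at least 500 genes and no more than 10% mitochondrial UMIs (Python 3.11.15, numpy 2.4.6, scipy 1.17.1, pandas 2.3.3). Members, gene lists and naming rule were all chosen with earlier results of these data known. UMIs were summed over cells of a library and scaled to CPM of their total. A gene counted as measured when its mean reached 50 CPM and was called past a ratio of 2 or 0.5, day 28 over day 0 or plasma cells over the other barcodes. A gene at 0 UMIs was placed at a floor of 3 UMIs. Intervals are exact at 95%: Poisson for CPM, Clopper-Pearson for shares and conditional binomial for ratios. With 1 library per group no test was made. Scrublet (scanpy 1.11.5) gave doublet scores and nothing was removed; removing the highest scores, 56 and 57 barcodes, was an alternative. Genes named are those of the rule, the 12 leading over the other barcodes, the 12 per side whose interval bound lay farthest from 1 (mean 100 CPM or more), the 3 highest and lowest of each list, and a set of plasma cell genes always named. Genes 13 to 20 of the ranking, the genes that followed Mzb1, the promoter examples and Rgs13 were named after their values were seen, and core plasma cells were likewise defined then. Alternatives changed the thresholds, filters, thinning, summing and cells left out. No column of the files was left unused (0). Some named genes are not reported here. Of 595 list genes, 4 had no row under their symbols. The ratio and interval code was tested on simulated counts. Promoter windows are from RefSeq on GRCm38.p6.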

Additional observations from a re-analysis of the deposited data

Results flagged for a closer look

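In 4 comparisons a gene's ratio of day 28 over day 0 in core plasma cells lay past 2-fold on the opposite side from that in another group of cells. None of these differences was tested, since each group has 1 library per day. Elane had a ratio of 4.83 in core plasma cells (261 and 54.1 CPM) and 0.412 in Vpreb3 cells (197 and 479 CPM). S100a8 had a ratio of 3.21 in core plasma cells (173 and 54.1 CPM) and 0.421 in Vpreb3 cells (69.3 and 164 CPM). Both genes are on the granulocyte precursor list by which the core was cut, while Vpreb3 cells were not filtered by it. Their opposite ratios thus compare a filtered group with an unfiltered one. Vpreb3 cells held up to 90 Elane UMIs at day 28 and 391 at day 0. In all members Elane was lower at day 28. Elane was detected in 87.5% of core cells at day 28 and 35% at day 0. In Vpreb3 cells these shares were 61.1% and 20.8%, at the depths given above. Ccl5 had a ratio of 3.35 in core plasma cells (181 and 54.1 CPM), 0.320 in Vpreb3 cells (101 and 317 CPM) and 0.389 in Siglech cells (367 and 944 CPM). The Ccl5 value rests to 52.7% on 1 day 28 cell.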

How the results depend on the processing

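No paired analysis was possible because each day has 1 library and no comparison comes from a test. The share ratio of 3.56 lay between 2.40 and 4.24 under the other settings, and at 1.30 without the Sdc1 threshold. In all members, 77 genes were at least 2-fold higher and 75 lower at day 28. These counts were 166 and 164 with cells thinned to 3200 UMIs, 274 and 323 at a mean of 20 CPM, 39 and 23 at 100 CPM, 716 and 178 without cells holding 3 or more granulocyte precursor UMIs (2 and 14 cells left), and 121 and 40 without the cell with the most UMIs of each gene. In core cells they were 119 and 47 without that top cell and 190 and 197 after thinning. The number of lists with a median past 2-fold was 1 in all members, 0 under stricter thresholds, 3 without the granulocyte-UMI cells, 2 without the top cell and 0 in core cells under each of 4 settings. Leaving out the 4 core cells with dendritic UMIs, chosen after seeing the data, gave 88 genes higher and 92 lower and 1 such list. Over the other barcodes, 160 genes were higher and 89 lower, against 275 and 208 at 20 CPM and 106 and 46 at 100 CPM, with 155 lower by per-cell means and 264 in core cells.

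Among genes past 2-fold in all members, log2 ratios of 24 gene and setting pairs changed sign, and the cause was not tested. Under thinning Vpreb1 was at -0.23, Ms4a1 at 0.32 (0.25 in core) and S100a4 at -0.55 (-1 in core). Ngp was at -1.08 under stricter thresholds, -0.82 without its top cell, and -2.21, -3.11, -2.67, -2.68 and -2.05 in core cells as summed, by per-cell means, without the top cell, thinned and without cells with dendritic UMIs. Lcn2 was at -0.62, -0.61 and -0.47 in core cells as summed, by per-cell means and without cells with dendritic UMIs. Without the granulocyte-UMI cells Mt2 was at -3.82, Eno1 at 0.43, Ifi27l2a at 1.05, Pou2f2 at 0.34, Cdc20 at 3.75 and Pax5 at 2.17. Without the top cell Cdc20 was at 0.38 (0.46 in core) and Cd52 at 0.15 in core. The 20 day 0 core cells limit what can be read of any gene near 50 CPM.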
